A study of Mus musculus with 6 samples.

Results

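The histone cluster genes lie together in the clusters Hist1 to Hist4 and mostly encode mouse canonical histones, with the pseudogene Hist3h2bb-ps among them. Members were all rows of the deposited expression table whose gene symbol starts with Hist and a cluster number, which gave 55 of 10041 rows. By cluster they were 44 rows of Hist1, 7 of Hist2, 3 of Hist3 and 1 of Hist4. By histone type they were 5 rows of H1, 13 of H2a, 15 of H2b, 11 of H3 and 11 of H4. RNA-seq was done on 6 libraries of mouse Th17 cultures, which began as naive CD4 T cells. All cells were activated for 48 h with antibodies to CD3e (10 µg/ml, bound to the plate) and CD28 (1 µg/ml). Cytokines that steer cells to the Th17 fate were present: IL-23 at 10 ng/ml, IL-6 at 20 ng/ml and TGF-β1 at 2.5 ng/ml. DMSO, the vehicle, was added to 3 cultures and oligomycin (2.5 ng/ml), an inhibitor of the mitochondrial ATP synthase, to the other 3. The sample titles carry 3 numbers, each shared by a DMSO and an oligomycin sample, so the cultures may have been paired, but no title number appears in the columns of the table, and the groups were compared without pairing. The sources used here give no strain, genotype or age, and do not state whether the libraries of a group came from separate animals, so p-values measure the spread between these libraries, which may be technical.

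Histones are the proteins around which DNA is wound: H2A, H2B, H3 and H4 form the core of the nucleosome, and H1 binds the linker DNA between nucleosomes. A dividing cell needs a new set for each copy of its genome, and the clustered genes are transcribed mainly during S phase for that purpose. Their mRNAs differ from most others in having no introns and ending in a conserved stem-loop instead of a poly(A) tail. The stem-loop is bound by the protein SLBP, which acts in processing, translation and decay of these mRNAs. Some clustered genes can also give polyadenylated mRNAs, which are known from cells that have stopped dividing. Activated CD4 T cells, as used here, normally divide fast. The sources used here do not say whether the libraries were selected for poly(A) tails, and such selection would lower the values of mRNAs that lack a tail.

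The stem-loop is shown first because it is the element by which these mRNAs are recognised. The histone stem-loop of 16 bases was searched on the sense strand of the GENCODE M21 transcripts (GRCm38) of each member, as a loop TNTN between the stem arms GGNNNT and ANNNCC, with all 6 base pairs of the stem matching. Its letters were found in the models of 36 of 55 members (65.5%), against 23 of 21810 other protein-coding genes (0.105%). In the sequences below, written 5′ to 3′ with T for U, the loop is in capitals. The first was found in 19 members of H1, H2a, H2b and H3, the second in 5 members of H2b and H3, and the others in 5 H4, 2 H4, 2 H4, 1 H4, 1 H3 and 1 H2a member.
Stem-loop 1: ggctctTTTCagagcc
Stem-loop 2: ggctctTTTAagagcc
Stem-loop 3: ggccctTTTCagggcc
Stem-loop 4: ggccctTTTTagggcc
Stem-loop 5: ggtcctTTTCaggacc
Stem-loop 6: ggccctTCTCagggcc
Stem-loop 7: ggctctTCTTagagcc
Stem-loop 8: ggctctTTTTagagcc
All 10 H4 members with the letters had a stem starting ggcc or ggtc, and all 26 members of the other types a stem starting ggct. Of the 19 members in whose models the letters were not found, 14 had fewer than 30 bases annotated after the stop codon. The deposited locus held the stem-loop in 19 of the 36 members (median log2 change -1.69) and did not include it in 17 (median -1.84), and the 19 members without the letters had a median of -1.74. The row of Hist2h2be, the only member that rose, was among those without the letters, with 2192 bases annotated after its stop codon. Long ends were also annotated in members that had the letters and fell, such as Hist1h1d (4931 bases), Hist4h4 (2515) and Hist1h2ac (2058). The deposited locus of Hist1h1d spans only 2977 bases, so it does not hold all of that end. Hist2h3c1, with the letters and up to 1213 bases after the stop codon, was called neither lower nor higher.

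Levels are in FPKM, the fragments found for each kilobase of a transcript scaled for the fragments mapped, with medians over all rows of 13.8 to 14.7 FPKM per library. How the libraries were scaled to each other is not stated in the sources used here. The summed FPKM of a library ran from 1434028 (DMSO library 1) to 2103404 (oligomycin library 2). The sequencing depth is unknown, so no counting interval is given, and a value is a relative level rather than an amount per cell. Libraries are numbered 1 to 3 within a group as in the deposited column names. The 9 T cell markers of a list, Cd3e and Cd4 among them, were all measured, with summed levels of 1051 to 1212 FPKM with DMSO and 1002 to 1191 FPKM with oligomycin. Of these, 2 fell (Thy1 and Cd28) and 0 rose, where 16.1% of all tested rows fell and 14% rose. Of 3 markers of cytotoxic cells 2 were measured, Cd8b1 and Prf1, with summed levels of 3.33 to 4.17 FPKM with DMSO and 3.68 to 5.37 FPKM with oligomycin. Of 3 NK cell markers Klrd1 was measured, at 12.75 to 34.6 FPKM with DMSO and 5.53 to 23.8 FPKM with oligomycin. None of these 3 genes was called. Lists for B, myeloid, dendritic and erythroid cells had 0 rows among those analysed.

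With oligomycin nearly the whole histone family was lower, by broadly similar factors in most members. The called falls in the means ran from 1.83-fold (Hist2h2ac) to 7.88-fold (Hist1h3d). Many rows share sequence, so their changes are not independent. Of 55 histone rows, 51 fell (92.7%) and 1 rose in limma's test on log2(FPKM + 1), at a Benjamini-Hochberg adjusted p under 0.05. Among all 9986 rows tested, 16.1% fell and 14% rose, 30.2% in either direction. All 55 members passed the filter of at least 1 FPKM in 3 libraries, and 0 of them lay under 1 FPKM in all oligomycin libraries. Among all deposited rows the lowest value of the higher group mean was 1.499 FPKM, so genes below that may have been left out. The median log2 change was -1.73 over the histone rows (quartiles -1.95 and -1.48), against a median of -0.0044 over all rows (quartiles -0.30 and 0.30). In 51 histone rows every oligomycin library was below every DMSO library, which held for 24.3% of all rows. Their changes also reached -1 or lower in 50 of 55 rows, against 5.57% of all rows. The summed FPKM of the histone rows were 42481, 38439 and 36985 FPKM with DMSO and 14361, 11188 and 12519 FPKM with oligomycin. The DMSO sum of 39302 ± 2848 FPKM (SD, n = 3) was 3.10-fold the oligomycin sum of 12689 ± 1593 (SD, n = 3), with no overlap of the groups. In such bulk samples, fewer cells in S phase and less histone mRNA per cell in S phase cannot be told apart.

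**Figure D1:**
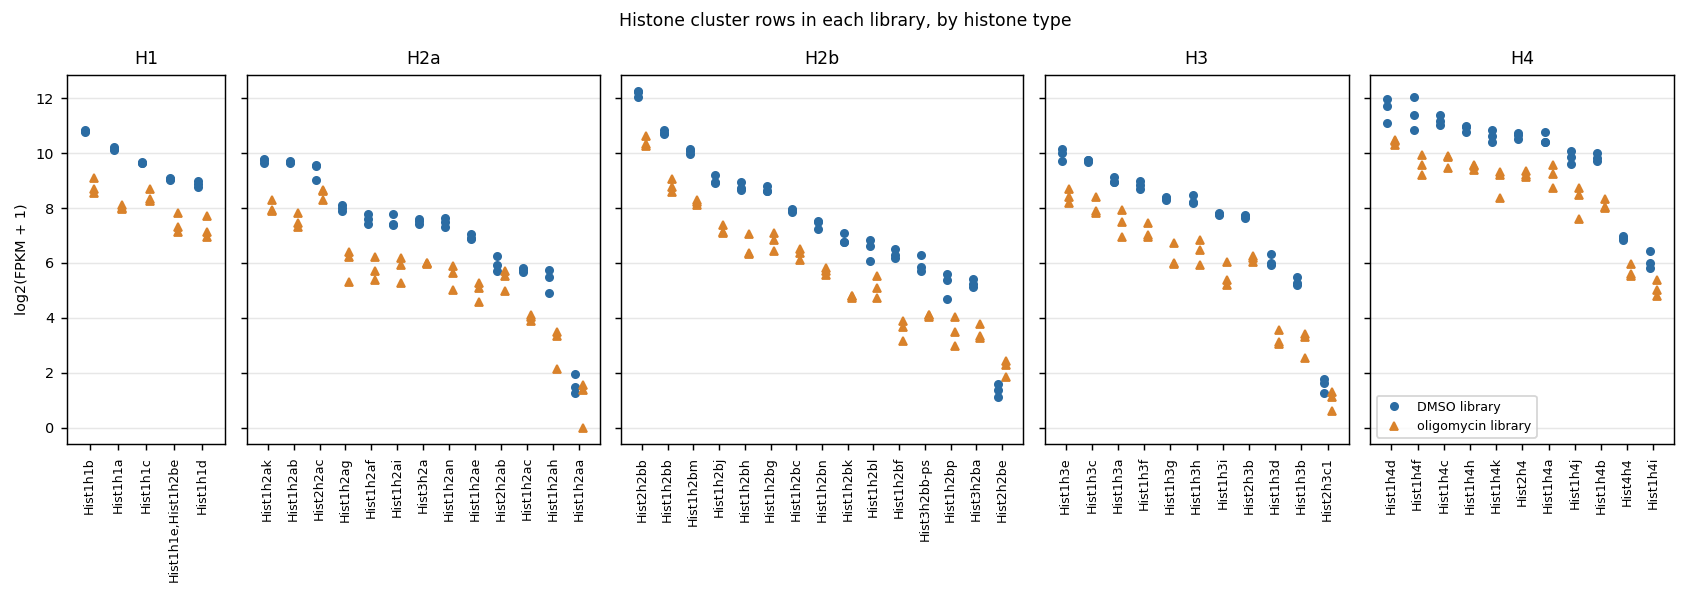
Each panel shows 1 histone type, with its members along the x axis in order of their DMSO mean and log2(FPKM + 1) on the y axis. Circles are the 3 DMSO libraries and triangles the 3 oligomycin libraries, and the triangles lie wholly below the circles in 51 of the 55 members.

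All 5 rows counted as linker histone H1 fell, with a median log2 change of -1.64 and a range from -2.15 to -1.25. They include a row that joins an H1 gene with an H2B gene, and without that row the median was -1.81. Hist1h1b (XLOC_005343, chromosome 13, 21779883 to 21780554, GRCm38), which encodes H1.5, was the most abundant. It measured 1776, 1752 and 1859 FPKM in DMSO libraries 1, 2 and 3 and 554, 376 and 416 FPKM in oligomycin libraries 1, 2 and 3 (log2 change -2.02, SE 0.18, adjusted p = 0.000149). Hist1h1a, which encodes H1.1, measured 1154, 1200.3 and 1117 FPKM in DMSO libraries 1, 2 and 3 and 251, 255 and 273 FPKM in oligomycin libraries 1, 2 and 3 (log2 change -2.15, SE 0.13, adjusted p = 3.59e-05). All oligomycin libraries of both genes were thus far below the DMSO values. Hist1h1c, which encodes H1.2, measured 809, 809.7 and 827 FPKM with DMSO and 410.4, 324 and 302 FPKM with oligomycin and fell the least of the type (log2 change -1.25, SE 0.16, adjusted p = 0.000823). Hist1h1d (H1.3) fell from 471 ± 36.1 to 158 ± 46.4 FPKM, a 2.97-fold lower mean. The row that joins Hist1h1e (H1.4) with the H2B gene Hist1h2be fell from 536 ± 12.4 to 175 ± 46.7 FPKM. The genes therefore changed their order: Hist1h1c stood at 0.701, 0.675 and 0.740 times the FPKM of Hist1h1a in the DMSO libraries, and at 1.64, 1.27 and 1.104 times in the oligomycin libraries. This ratio was chosen after the values were seen and carries no test.

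Of 13 H2a rows 11 fell and 0 rose, with a median of -1.74. Hist1h2ak was the most abundant, at 806, 889 and 855 FPKM with DMSO and 314, 241 and 239.5 FPKM with oligomycin (log2 change -1.69, SE 0.15, adjusted p = 0.000171). Hist1h2ab, close behind it, measured 813, 806 and 840.1 FPKM with DMSO and 223, 158 and 174 FPKM with oligomycin and dropped further (log2 change -2.16, a 4.43-fold lower mean). The steepest fall of the type was in Hist1h2ah, at 53.2, 29.1 and 44.4 FPKM with DMSO and 10.2, 3.42 and 9.04 FPKM with oligomycin (log2 change -2.41, SE 0.35, adjusted p = 0.00172). In each of these genes the groups were well apart. Hist3h2a, in the Hist3 cluster, measured 182, 193 and 172 FPKM with DMSO and 63.3, 62.1 and 62.2 FPKM with oligomycin (log2 change -1.53, SE 0.11, adjusted p = 5.99e-05). The Hist1 H2a rows that fell did so by 1.69 (Hist1h2ak) to 2.41 (Hist1h2ah) on the log2 scale.

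Of 15 H2b rows 14 fell and 1 rose, with a median of -1.84. Hist2h2bb (XLOC_012862, chromosome 3, 96269700 to 96270192) had the highest mean of all 55 rows, at 4798, 4902 and 4282 FPKM with DMSO and 1593, 1224 and 1307 FPKM with oligomycin (log2 change -1.77, SE 0.19, adjusted p = 0.000440). Hist1h2bb followed among the H2B genes, at 1704, 1849 and 1674 FPKM with DMSO and 540.0, 379.8 and 441 FPKM with oligomycin (log2 change -1.95). Both lost about the same factor, 3.39-fold and 3.84-fold in the means. Hist1h2bf showed the largest fall but one of the family, at 76.9, 90.1 and 72.3 FPKM with DMSO and 8.01, 13.9 and 11.8 FPKM with oligomycin (log2 change -2.75, SE 0.19, adjusted p = 5.18e-05). Hist1h2bh measured 419.8, 491 and 401 FPKM with DMSO and 132, 80.2 and 82.2 FPKM with oligomycin (log2 change -2.18, SE 0.20, adjusted p = 0.000188). Hist1h2bc, whose annotated mRNA runs 742 bases beyond the stop codon, fell from 240.2 ± 11.3 to 79.2 ± 11.1 FPKM. In the Hist3 cluster Hist3h2ba measured 33.8, 42.0 and 36.8 FPKM with DMSO and 8.71, 9.20 and 12.8 FPKM with oligomycin (log2 change -1.79), and its neighbouring pseudogene row Hist3h2bb-ps 56.3, 76.7 and 51.8 FPKM with DMSO and 16.4, 15.3 and 16.2 FPKM with oligomycin (log2 change -1.86). These rows share part of their sequence, so reads of either may have been counted for the other.

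Of 11 H3 rows 10 fell and 0 rose, with a median of -1.70. Hist1h3e was the most abundant, at 838, 1141 and 1020.2 FPKM with DMSO and 416, 293 and 339 FPKM with oligomycin (log2 change -1.52, SE 0.18, adjusted p = 0.000741). The largest fall among all 55 rows was that of Hist1h3d (XLOC_004955, chromosome 13, 23575802 to 23576212), at 63.5, 79.5 and 59.2 FPKM with DMSO and 10.7, 7.64 and 7.30 FPKM with oligomycin (log2 change -2.85, SE 0.17, adjusted p = 3.59e-05). Its oligomycin mean was 7.88-fold lower, and the groups were far apart. Hist1h3i measured 228, 215 and 219 FPKM with DMSO and 64.9, 40.6 and 36.0 FPKM with oligomycin (log2 change -2.25), and Hist1h3b 37.3, 44.4 and 35.7 FPKM with DMSO and 9.64, 4.78 and 8.77 FPKM with oligomycin (log2 change -2.24). Hist2h3b, of the Hist2 cluster, measured 215, 206 and 200.2 FPKM with DMSO and 75.6, 65.1 and 71.8 FPKM with oligomycin (log2 change -1.54, SE 0.11, adjusted p = 7.01e-05).

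All 11 H4 rows fell, with a median of -1.42 and a range from -1.86 to -1.02. Hist1h4d had the highest mean of the type, at 4085, 2187 and 3425 FPKM with DMSO and 1429.8, 1260.5 and 1389 FPKM with oligomycin (log2 change -1.20, SE 0.25, adjusted p = 0.00843). Its DMSO libraries spread widely, with library 2 the lowest, but stayed above all oligomycin libraries. Hist1h4f spread likewise, at 4252, 2693 and 1839 FPKM with DMSO and 756, 986 and 592 FPKM with oligomycin (log2 change -1.86, SE 0.32, adjusted p = 0.00370), and here library 3 was the lowest of the DMSO group. Hist2h4 measured 1452, 1714 and 1632 FPKM with DMSO and 648, 584 and 568 FPKM with oligomycin (log2 change -1.41, SE 0.15, adjusted p = 0.000431). Hist4h4, the single row of the Hist4 cluster, measured 119, 127 and 112 FPKM with DMSO and 61.6, 45.6 and 47.0 FPKM with oligomycin (log2 change -1.21, SE 0.14, adjusted p = 0.000581). Hist1h4i fell the least of the type (log2 change -1.02, adjusted p = 0.00701). The H4 rows held 40.4% to 48.2% of the summed histone FPKM in the DMSO libraries and 45.9% to 50.5% in the oligomycin libraries. H2b rows held 23.2% to 26.6% and 20.7% to 21.9%. The median deposited locus of the H4 rows spanned 312 bases and that of the H1 rows 1561 bases, and estimates of FPKM for such short rows depend on the length correction used.

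In Hist1, on chromosome 13 from 21715763 to 23934851, 43 of 44 rows fell, with a median of -1.74. These rows lie in 3 blocks separated by long gaps. The block from 21715763 to 21789213 had 12 of 12 rows lower (median -1.74), that from 22035166 to 22043610 had 5 of 5 (median -2.03), and that from 23531044 to 23934851 had 26 of 27 (median -1.72). The 3 Hist3 rows, on chromosome 11 from 58948911 to 58956674, all fell (median -1.79), as did the Hist4 row on chromosome 6. In Hist2, on chromosome 3 from 96219916 to 96270192, 4 of 7 rows fell, 1 rose and 2 were not called, with a median of -0.86. The Hist2 rows that fell were Hist2h2bb, Hist2h3b, Hist2h4 and Hist2h2ac. The differences between clusters were not tested. In the plot of changes in genomic order, Hist1 neighbours of different histone type fell, as nearly all Hist1 rows did. The plot therefore cannot show whether neighbours changed more alike than distant rows, which was not tested.

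**Figure D2:**
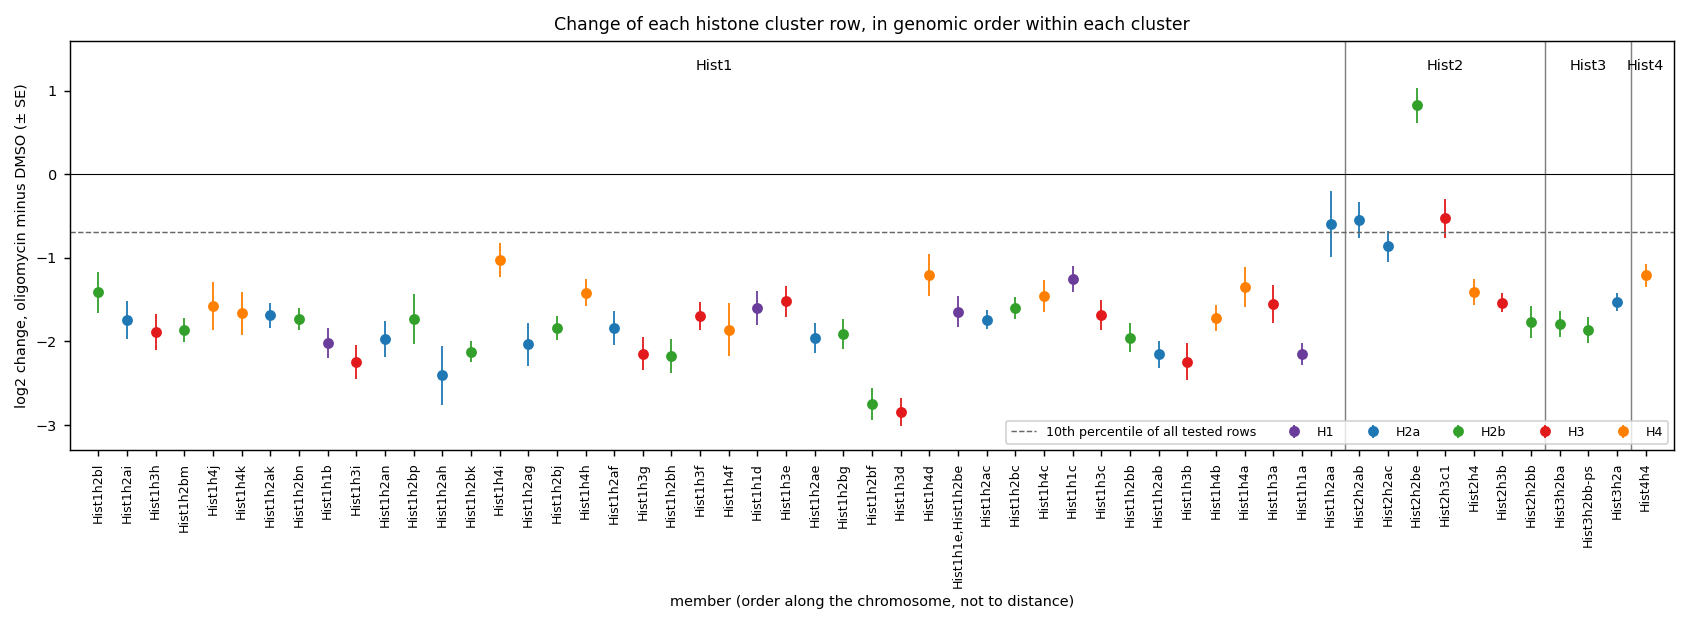
Points are log2 changes (oligomycin minus DMSO) with SE bars, coloured by histone type and ordered along the chromosome within each cluster; the dashed line marks the 10th percentile of all tested rows. Of 55 rows, 51 lie below that line, and the row of Hist2h2be is the single one above 0.

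Hist2h2be (XLOC_012858, chromosome 3, 96221121 to 96223738), an H2B gene of the Hist2 cluster, rose from a very low level. It measured 1.98, 1.14 and 1.603 FPKM in DMSO libraries 1, 2 and 3 and 2.57, 4.31 and 3.87 FPKM in oligomycin libraries 1, 2 and 3 (log2 change 0.83, SE 0.21, adjusted p = 0.0179). The groups did not overlap, and the oligomycin mean was 2.28-fold higher, where 23.1% of all rows were higher without overlap. The adjusted p rose to 0.0612 when DMSO replicate 2 was left out, to 0.0537 for DMSO replicate 3 and to 0.0645 for oligomycin replicate 3, so that the rise was then not called. It shares no run of 50 bases with another annotated transcript. The other rows named in this paragraph were chosen after their values were seen, except Hist2h2ac. Hist2h2ab, an H2A gene of the same stretch of Hist2, measured 59.4, 51.0 and 76.3 FPKM with DMSO and 51.7, 30.8 and 45.6 FPKM with oligomycin (log2 change -0.55, SE 0.21, adjusted p = 0.0845). It was called without oligomycin replicate 1 (adjusted p = 0.0420). Hist1h2aa, at the far end of Hist1, was listed at 1.80, 2.85 and 1.41 FPKM with DMSO and 1.95, 0 and 1.59 FPKM with oligomycin (adjusted p = 0.284). Hist2h3c1 measured 1.36, 2.06 and 2.37 FPKM with DMSO and 1.16, 0.533 and 1.48 FPKM with oligomycin (adjusted p = 0.124). In these 3 rows the groups overlapped, and a missed threshold does not show that their levels were alike. Of the 3 rows with a DMSO mean under 10 FPKM, Hist2h2be rose and Hist1h2aa and Hist2h3c1 were not called. Hist2h2ac had the smallest fall among the rows called, at 525, 769 and 740.2 FPKM with DMSO and 403, 316 and 391 FPKM with oligomycin (log2 change -0.86, SE 0.19, adjusted p = 0.0105), and its groups did not overlap.

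**Figure D3:**
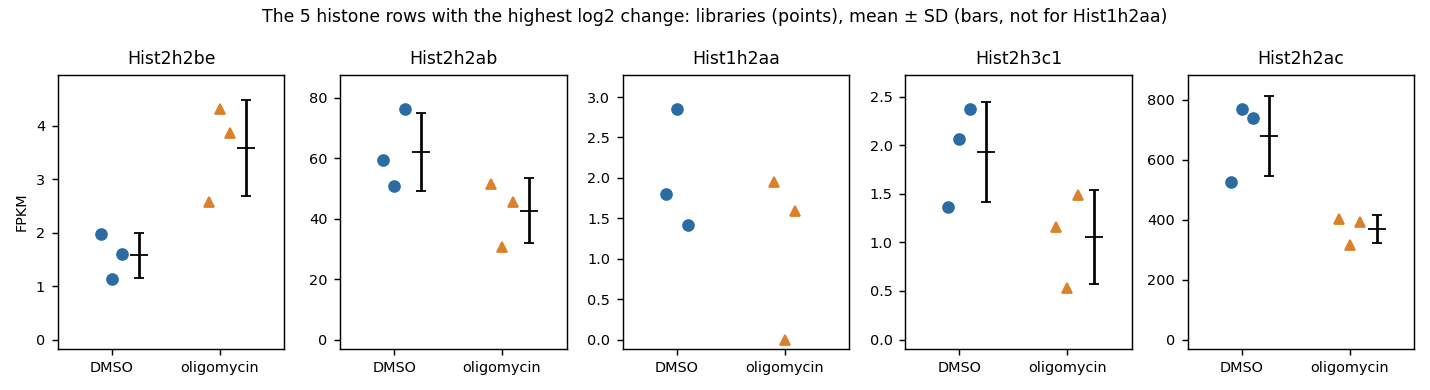
FPKM in each library of the 5 histone rows with the highest log2 change, with circles for DMSO, triangles for oligomycin and bars for the mean ± SD of 3 libraries (no bar for Hist1h2aa, listed at 0 in 1 library). The groups overlap in Hist2h2ab, Hist1h2aa and Hist2h3c1, and lie apart in Hist2h2be (higher with oligomycin) and Hist2h2ac (lower).

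The relative levels of the histone rows were not lower to the same degree in each oligomycin library. Relative to the DMSO mean, the median histone row stood at -1.44, -1.88 and -1.82 on the log2 scale in oligomycin libraries 1, 2 and 3. Library 1 held the highest oligomycin value in 43 of 55 histone rows, against 41.6% of all tested rows. By type these medians were -1.23, -1.75 and -1.94 for H1, -1.51, -2.23 and -1.82 for H2a, -1.67, -1.93 and -1.84 for H2b, -1.44, -2.06 and -1.88 for H3 and -1.33, -1.53 and -1.31 for H4. In H1, H2a, H2b and H3 library 1 was thus the highest, while in H4 library 3 stood as high as library 1. The DMSO libraries stayed between -0.13 and 0.21 in all types. The coefficient of variation of a histone row had a median of 10.97% in DMSO and 22.3% in oligomycin, against 10.8% and 14.6% for all tested rows. Without oligomycin library 1 the median log2 change of the histone rows was -1.85, and without library 2 it was -1.63. The summed level of a list of 28 S phase genes was also highest in library 1, at 2165, 1519 and 1691 FPKM in oligomycin libraries 1, 2 and 3. Its part in the spread of the histone rows was not tested.

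**Figure D4:**
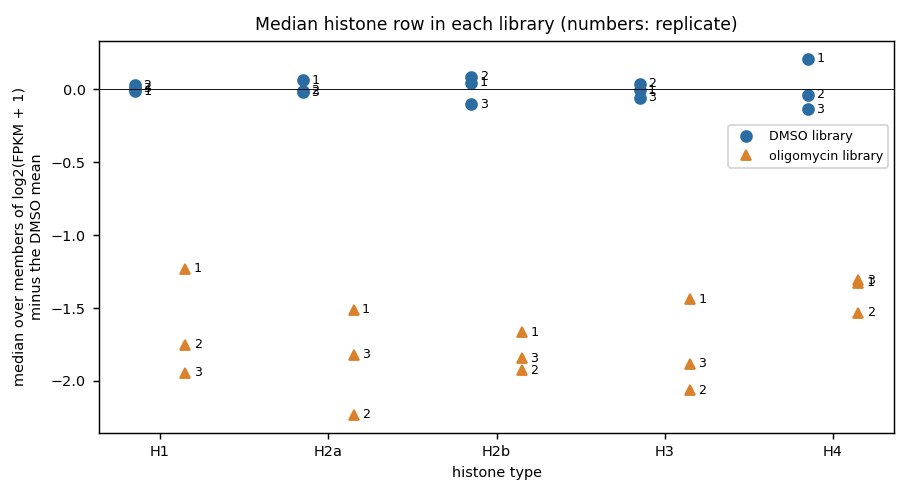
The y axis gives, for each library and histone type, the median over members of log2(FPKM + 1) minus the mean of the DMSO libraries; digits are the replicate numbers. DMSO libraries (circles) lie near 0 and oligomycin libraries (triangles) between -2.23 and -1.23, with library 1 the highest in H1, H2a, H2b and H3.

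Many histone genes are near copies, and counting can then move reads between rows. Within the deposited loci, 52 of 55 members shared at least 1 run of 50 bases with a transcript of another annotated gene, overlapping gene models included. In 33 members at least 50% of such runs were shared; of these 31 fell, with a median log2 change of -1.84. In the 22 members below 50%, 20 fell and 1 rose, with a median of -1.60. Hist1h1a, Hist1h1b and Hist2h2be shared 0 runs, and the H1 genes among them fell as given above. For Hist2h2bb, Hist2h3b and Hist2h3c1 every run was shared, so their single values are uncertain. Hist2h3b and Hist2h3c1 shared runs with other clustered H3 genes. The runs of Hist2h2bb were shared only with the annotated genes Gm20628 and Gm42743, and with no other histone row. Across members the log2 change had a Spearman correlation of 0.05 with the DMSO mean and of 0.05 with the span of the locus, and of -0.28 with the percentage of shared runs (n = 55), a description over rows of the same 6 libraries.

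Upstream windows of 250 bases from RefSeq (GRCm38.p6) could be matched for 49 of 55 members, and were searched on both strands for the TATA box letters TATAAA, the CCAAT box letters CCAAT and the octamer ATTTGCAT. CCAAT was found in 41 of 49 members (83.7%), TATAAA in 26 (53.1%) and ATTTGCAT in 13 (26.5%). Over all 32851 promoter windows of that length the shares were 33.9%, 12.4% and 1.601%. The octamer was found in 7 of 13 H2a, 5 of 12 H2b and 1 joint row, that of Hist1h1e and Hist1h2be, where it lies in a window of the H2B gene Hist1h2be. It was found in no window of an H1 gene, and in 0 of 9 H3 and 0 of 10 H4 members. CCAAT was found in all 13 H2a and all 12 H2b members but in 3 of 10 H4 members. Many H2a and H2b genes lie head to head, so that their windows can overlap and are not independent. Members with TATAAA had a median log2 change of -1.87 and those without it -1.69; for CCAAT the medians were -1.79 and -1.497, and for ATTTGCAT -1.86 and -1.72. A match describes letters only. The 150 bases before the start are printed for 4 members chosen after their values were seen, with the matched letters in capitals on either strand: Hist1h3d, which fell the most, Hist1h1a and Hist1h2ab, which fell by over 2 on the log2 scale, and Hist2h2ac, which fell the least among the rows called.
Hist1h3d (chr13:23575613-23575762, plus strand): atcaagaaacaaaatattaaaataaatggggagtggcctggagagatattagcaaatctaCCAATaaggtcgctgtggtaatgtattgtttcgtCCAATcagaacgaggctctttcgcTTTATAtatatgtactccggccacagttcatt
Hist1h1a (chr13:23763518-23763667, plus strand): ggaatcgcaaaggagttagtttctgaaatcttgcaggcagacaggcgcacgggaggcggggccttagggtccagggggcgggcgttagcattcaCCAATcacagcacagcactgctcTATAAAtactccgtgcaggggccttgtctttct
Hist1h2ab (chr13:23750938-23751087, plus strand): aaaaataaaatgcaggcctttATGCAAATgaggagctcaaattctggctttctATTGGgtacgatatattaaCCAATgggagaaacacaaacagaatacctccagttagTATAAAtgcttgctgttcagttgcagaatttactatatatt
Hist2h2ac (chr3:96220881-96221030, minus strand): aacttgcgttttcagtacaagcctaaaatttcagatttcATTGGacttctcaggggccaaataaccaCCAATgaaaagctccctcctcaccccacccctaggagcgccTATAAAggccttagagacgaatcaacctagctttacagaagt
All 4 hold CCAAT and TATAAA (read as ATTGG or TTTATA on the other strand) within these bases. The octamer, read as ATGCAAAT, starts at position -129 from the gene start in Hist1h2ab. In Hist2h2ac it was found at position -200, before the printed bases. As members picked by their values, these 4 do not show how the letters relate to the size of a fall, which was not tested.

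Replication-independent and variant histones are mostly encoded by genes that lie singly, many with polyadenylated mRNAs. Of 9 tested genes of a list of them 6 (66.7%) fell and 1 (11.1%) rose, against 16.1% and 14% of all tested rows, with a median of -0.75. H1f0, the linker histone H1.0, fell from 33.7 ± 0.0915 to 6.36 ± 1.58 FPKM (log2 change -2.26, SE 0.17, adjusted p = 6.82e-05). Cenpa, the H3 variant of centromeres, fell from 99.1 ± 5.07 to 20.1 ± 2.67 FPKM (log2 change -2.26). H2afx, the H2A variant marked at DNA breaks, fell from 531 ± 18.6 to 199 ± 48.1 FPKM (log2 change -1.44). H2afv and H2afz, both H2A.Z genes, and H2afy, a macroH2A gene, fell by 0.86, 0.75 and 0.63. H2afj, an H2A variant gene, rose from 47.0 ± 4.77 to 65.0 ± 2.33 FPKM (adjusted p = 0.0179), but this call needed both DMSO replicate 2 and DMSO replicate 3. The gene lies on chromosome 6 at 136808248 to 136810074, near the row of Hist4h4 (136801553 to 136804431), which fell. Both H2afx and H2afj share runs of 50 bases with clustered H2a rows such as Hist1h2ab. Reads of either may thus have been counted for the other, and these values are not independent of the histone rows. H3f3a and H3f3b, both genes of the replacement histone H3.3, stood at 59.9 ± 5.19 to 57.5 ± 10.2 FPKM and 273 ± 15.7 to 257 ± 34.1 FPKM (adjusted p = 0.747 and 0.635).

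Shares for the lists that follow are to be read against the 16.1% of all tested rows that fell and the 14% that rose. In the list for histone mRNA transcription and processing 6 of 25 rows (24.0%) fell and 0 rose (median -0.28). Slbp, the stem-loop binding protein, measured 106, 109.6 and 105 FPKM with DMSO and 81.3, 60.5 and 69.0 FPKM with oligomycin (log2 change -0.61, SE 0.13, adjusted p = 0.0102). Zfp473, which encodes a zinc finger protein of the processing complex, fell from 2.83 ± 0.102 to 0.674 ± 0.397 FPKM. The cyclin E genes Ccne1 and Ccne2, their kinase Cdk2 and Nfyb, a subunit of the CCAAT-binding factor NF-Y, fell by 0.70, 0.94, 0.54 and 0.51. Npat, the coactivator of clustered histone genes, went from 12.3 ± 1.22 to 9.89 ± 0.310 FPKM (adjusted p = 0.0984), with its groups apart; it was chosen after its values were seen. Without oligomycin replicate 1 the list had 10 fallen rows. In the list for histone mRNA decay 3 of 15 rows (20.0%) fell and 1 (6.67%) rose (median -0.11), shares near or below those of all rows. Its called members were few: Lsm2, Lsm3 and the 3′ exonuclease gene Eri1 fell, and Xrn1, a 5′ exonuclease gene, rose by 0.48. The rise of Xrn1 lost its call in 4 cases: leaving out replicate 2 of either group, or replicate 3 of either. Among histone chaperones 9 of 25 rows (36.0%) fell and 1 (4.0%) rose (median -0.30). Asf1b and Chaf1a, which deliver new H3 and H4 to replicated DNA, fell from 56.1 ± 6.79 to 26.9 ± 4.39 FPKM and from 30.8 ± 3.51 to 15.4 ± 3.24 FPKM. Nasp, a carrier of H3 and H4, fell by 0.45, and Ubn1, of the HIRA complex, rose by 0.38. Without DMSO replicate 3 or oligomycin replicate 3, 5 chaperone rows fell, and the rise of Ubn1 was called only while oligomycin replicate 2 and all DMSO replicates were kept. In the S phase list 20 of 28 rows (71.4%) fell and 0 rose (median -0.58). Ccna2, the cyclin A gene, fell by 1.97 and Rrm2, a ribonucleotide reductase subunit, by 1.37, while Mcm6, of the replicative helicase, measured 230.2, 234 and 236 FPKM with DMSO and 268, 186 and 226 FPKM with oligomycin (log2 change -0.06, adjusted p = 0.780). In the polyadenylation list 2 of 13 rows (15.4%) fell and 1 (7.69%) rose (median -0.07), again near or below the shares of all rows. Leaving out any 1 library other than oligomycin replicate 1 ended that rise, and no fall was called when DMSO replicate 1, DMSO replicate 3, oligomycin replicate 2 or oligomycin replicate 3 was removed. The count of S phase genes that fell was 13 without DMSO replicate 2, 11 without DMSO replicate 3 and 13 without oligomycin replicate 3. The median of the histone rows lay below that of each of these lists, a difference that was not tested.

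**Figure D5:**
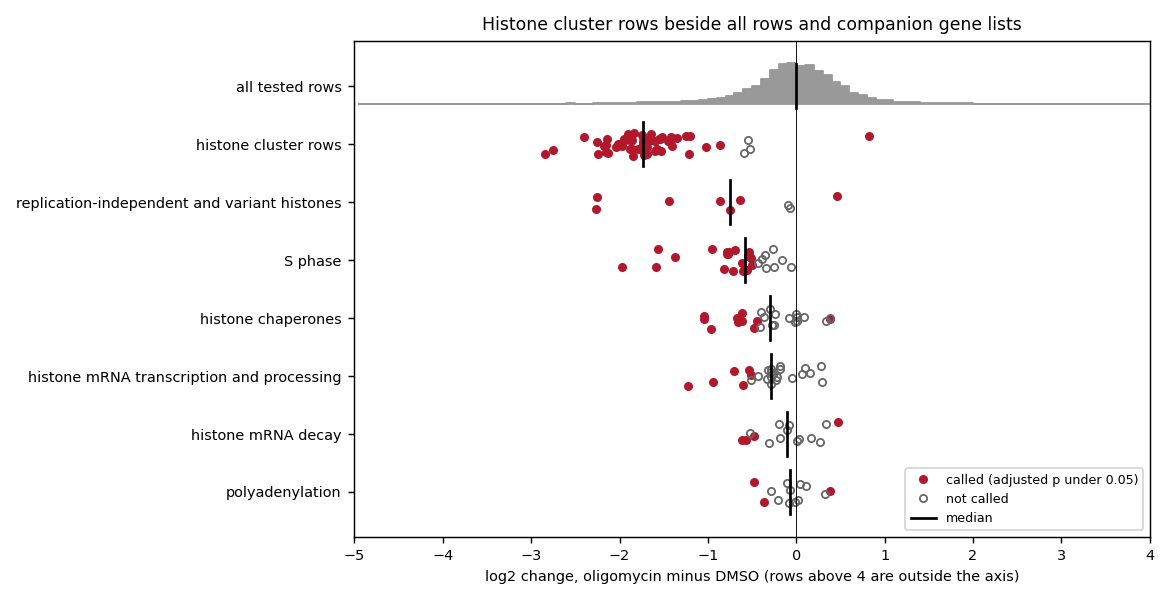
Log2 changes (x axis) of all tested rows (grey histogram, scaled to its own height), of the 55 histone rows and of 6 companion lists, with filled points for called rows, open points for rows not called and a vertical bar at each median. The medians are -1.73 for the histone rows, -0.75 for variant histones and -0.58 for the S phase list.

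The mean standardised profile of the 55 histone rows over the 6 libraries was compared with every other tested row. The highest Pearson correlations were those of Sgol2, Fads1, Sdf2l1, Ccna2, Pdpn, Ckap5, Ptpn9, Tpm4, Tpx2 and Nampt, from 0.9978 to 0.9996. These genes have varied known roles. Sgol2 protects the cohesion of sister chromatids, Ccna2 is cyclin A2, and Ckap5 and Tpx2 act on spindle microtubules. Fads1 encodes a fatty acid desaturase, Sdf2l1 a protein of the endoplasmic reticulum, Pdpn the membrane protein podoplanin and Ptpn9 a tyrosine phosphatase. Tpm4 encodes a tropomyosin, and Nampt an enzyme of NAD salvage. No list or test of a shared role was made. Sgol2 measured 14.9, 14.2 and 14.4 FPKM with DMSO and 4.88, 3.27 and 4.28 FPKM with oligomycin, and Tpx2 57.8, 60.6 and 60.1 FPKM with DMSO and 18.4, 13.2 and 16.9 FPKM with oligomycin. With 3 libraries per group such values mainly follow the step between the groups, and they are given as a description.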

How the data were processed

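The authors deposited 1 table of FPKM per gene and library. Per the submitters' processing notes the tools were Cuffdiff 2.2.1.3, Cuffnorm 2.2.1.1, Cufflinks 2.2.1.0 and TopHat2 2.1.0, and the build mm10 (GRCm38). The sources used here give neither their settings nor the annotation, the use of strand, or how reads with several matches were counted. Columns name the group and a number from 1 to 3 that is in no sample title, so each was mapped to its group only. Members and lists were chosen with earlier results of these data known.

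Rows with at least 1 FPKM in at least 3 of 6 libraries (9986 of 10041) entered limma 3.58.1 (under R 4.3.3) on the log2(FPKM + 1) scale, with an intensity trend and the group alone as model. The two-sided p-values were adjusted by Benjamini-Hochberg over all rows tested; calls need an adjusted p under 0.05. The pseudocount understates changes of low rows. Folds are ratios of mean FPKM, errors are SD (n = 3) or SE. The procedure was also run on simulated data drawn row by row, without shared reads, pairing or library effects. That run cannot speak to those features of the real libraries. Deposited starts were read as counted from 0 and are printed counted from 1, as 19 RefSeq gene starts of members equal the deposited start plus 1 and 0 the start itself. 14 histone symbols of GENCODE M21 have no row and are not analysed here. Values in every library are given for the 8 largest falls, the rise, the most abundant row of each type, all rows of Hist3 and Hist4, the called rows of Hist2 and rows for which leaving out a setting or library changed a call. Hist1h1c, Hist1h2bb, Hist1h4f and the uncalled rows were added after their values were seen. Of each list the called genes and the most abundant uncalled gene could be named. Tried were 16 alternatives.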

Additional observations from a re-analysis of the deposited data

How the results depend on the processing

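All 51 falls kept their direction and call under each of the 16 alternatives in which the row was tested; of 876 results of single members under an alternative, 871 kept their side of the threshold. The median log2 change of the histone rows ran from -1.85 to -1.63 when 1 library was left out and from -1.75 to -1.58 under the other alternatives. The rise of Hist2h2be depended on 3 libraries named above, so that 0 or 1 histone, Hist2 or H2b row rose when 1 library was left out, and it was not tested (0 rows rose) with a minimum of 5 FPKM. That minimum left 5 Hist2 rows with a median of -1.41, and quantile normalization gave H2b a median of -1.71.

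Over all rows, leaving out 1 library gave 989 to 1861 falls and 780 to 1387 rises. Fallen rows then numbered 11 to 23 in the S phase list, 5 to 13 among chaperones, 5 to 10 in transcription and processing and 0 to 2 in polyadenylation, and risen rows 0 to 1 among chaperones, decay and variant histones and 0 to 2 in polyadenylation. With libraries scaled to the same median, or to the same sum without small RNA and histone rows, 2 chaperones rose. Of polyadenylation genes 1 fell with no filter, quantile normalization or no intensity trend, and 0 rose with quantile normalization or the scaled sum. The causes were not tested.

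The sample titles share numbers between the groups, but the table numbers its columns otherwise, so the pairs of the titles could not be applied. Column numbers served as a replicate block in their place: correlations of same-numbered deviations from the group means were 0.06, 0.25 and 0.13, and 1 of the 6 libraries, oligomycin 1, correlated best with another number (DMSO 3, 0.12). With the replicate block 52 histone rows fell, Hist2h2ab included (adjusted p = 0.0228), and 1 rose. The unknown depth limits the rows under 10 FPKM most.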
